A study of Populus deltoides with 38 samples.

Results

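In leaves of the poplar Populus deltoides, 113 of 39572 loci were lower with cadmium (Cd) where plants had been given sulfate, and stood at about the same level with and without Cd where they had been given none. The plants were raised from stem cuttings, grown in sand and then in hydroponics, and the labels give an age of 89 days. Sulfate stood at 0 µM (low), 100 µM (middle) or 1500 µM (high). After 12 days on it, 50 µM CdCl2 or none was added for another 21 days with sulfate kept as before. All 6 groups carried the same strain, monilifera (Aiton) Eckenw, with no altered gene. They are written +CdL and −CdL, +CdM and −CdM, and +CdH and −CdH, with 3 mRNA libraries and 3 small RNA libraries each, and a closing digit is the replicate, as in +CdL1. For the degradome, a sequencing of transcript ends left by cutting, 9 RNAs with Cd were pooled into 1 library and 9 RNAs without Cd into another. Which plants went into a library is not in the labels, so the p-values rest on a spread between libraries that may be technical only.

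Cadmium is a toxic metal that plant cells bind with thiols. Sulfate taken up by the roots is reduced and built into cysteine and from there into glutathione, the main soluble thiol of leaves. Glutathione is also the building block of phytochelatins, short thiol peptides that hold Cd and carry it to the vacuole. Sulfate supply and Cd exposure therefore meet in the same pathway, and the study crossed them to ask about the part of sulfur in handling Cd in leaves.

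The members were chosen by their own values. A locus had to reach a mean of 5 FPKM (fragments counted per length of transcript and per depth of library) in at least 1 group, which 17555 loci did. The difference of group means of log2(FPKM + 1), +Cd minus −Cd, had to be −1.2 or lower at both middle and high sulfate, which 465 of these did, and had to lie within −0.3 to 0.3 at low sulfate. Over the 23166 loci with a mean of 1 FPKM or more, 0.384% fell that far at low sulfate, 3.32% at middle and 2.52% at high. Of the 465, 31 were lower by 1.2 or more at low sulfate too, 298 lay between −1.2 and −0.3 there, 113 are the members, and 23 lay above 0.3. The members are thus a narrow slice of a continuous range, and the Cd differences below describe how they were chosen and are given with no test. Just inside the lower limit at low sulfate stood Potri.005G157300 at −0.29, and just outside it Potri.007G055500 at −0.30. At middle sulfate XLOC_030112 at −1.2028 was inside and Potri.015G051200 at −1.1881 outside. At high sulfate Potri.014G126100 at −1.2005 was inside and XLOC_037074 at −1.1947 outside. By the minimum level XLOC_007107 at 5.31 FPKM was inside and XLOC_037153 at 4.87 FPKM outside. With any 1 library left out, the rule found 79 to 168 loci, the fewest without +CdL2 (63 of them shared with the 113) and the most without −CdL3 (99 shared).

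Of the members, 90 carry a Populus gene identifier and 23 carry only a locus number of the authors' assembly. The files pair the identifiers with no names, and 0 of the 39512 identifiers in the files matched the 31722 genes of the reference table, so members are given by identifier and position and no function is named for them. For the same reason the leaf identity of the libraries was not checked with marker genes. Positions are those of the authors' files, whose genome build is not given in the sources used here. In bulk RNA, fewer cells of a type and less RNA per cell cannot be told apart.

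The FPKM files carry no read totals. Judged by the steps between low values, 1 read was worth 0.821 times as much in +CdH2 as in −CdL1. In +CdM3 it was worth 1.34 times as much, and these were the ends of the range over the 18 libraries. The search looked only within less than 2-fold of −CdL1, so it could not find a larger difference and sets no bound on depth. Across loci, the replicates within a group had correlations of 0.955 to 0.978, and no pair of libraries held identical values. Among the members, −CdH1 was the lowest library of its group in 62 of 113, +CdH3 in 76 and +CdL3 in 73, while −CdL3 was the highest of its group in 86.

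By the listed positions, a pair of the members contain microRNA hairpins of the small RNA tables, and their mature sequences are shown because they give a second, separate readout. XLOC_012117, a locus without a gene identifier on chromosome 5 (1499678 to 1502232), holds a hairpin at chr5:1501308-1501530, on the + strand, that the authors matched to the poplar miR6438 entries of miRBase. A predicted hairpin at chr5:1501352-1501534, also within the locus, overlaps that hairpin. Potri.017G017200 on chromosome 17 (1457576 to 1462129) holds a predicted hairpin at chr17:1458993-1459217 on the + strand. Another predicted hairpin within the locus, at chr17:1458805-1459029 on the − strand, overlaps it, and its sequences had too few reads to test. The mature sequences below had enough reads to test, and capitals mark the seed, bases 2 to 8, with which a microRNA first pairs to its target. They are written 5′ to 3′ as DNA letters, as in the deposited tables.
ptc-MIR6438b-p5_1ss11AG: tCGACTGAaagtgaaagctat
PC-5p-195501_30: tGTATCGActgaaagtgaaag
ptc-miR6438a: tTGTACACagaataggtgaaat
PC-5p-51531_193: tTCACTTTccctttatacttt
PC-3p-82082_103: tCAGATCGaactattggaggg
The ptc-MIR6438b-p5 and PC-5p-195501_30 sequences share a run of 17 bases, so they are shifted copies of the same hairpin arm with different seeds, and all 5 seeds differ from each other. ptc-miR6438a and PC-5p-51531_193 are each listed at 2 hairpins, so their reads need not come from the member.

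Across the members the fall with Cd had about the same size at middle and high sulfate. The difference of +Cd minus −Cd had a median of −0.12 at low sulfate (−0.29 to 0.26). There it was below 0 in 83 members and above 0 in 30, and the absence of a Cd effect was not tested. At middle sulfate the median was −1.84 and the lowest value −4.31, and at high sulfate −1.68 and −4.32. Both lowest values rest in part on a listed 0. XLOC_031164 was at 0 in +CdM1, and XLOC_024216 was at 0, 8.27 and 6.41 FPKM in +CdH. In 84 members the fall at middle sulfate exceeded that at high. All 3 +CdM libraries lay below all 3 −CdM libraries in 108 of 113 members, where 20.9% of the 23166 did so. At high sulfate the count was also 108 (17.6% of those loci). At low sulfate all 3 +CdL libraries lay below all 3 −CdL libraries in 3 members (11.2% of those loci) and above them in 0 (9.97%). Since the rule used these differences, the counts only describe the choice.

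The rule did not directly set where the level at low sulfate sits. The log2(FPKM + 1) scale understates changes of low loci, so loci low at low sulfate could meet the window more easily. In the median member the level at low sulfate lay in the range of +CdM, above +CdH and below −CdM and −CdH. −CdM was the highest of the 6 groups in 104 members, and +CdH the lowest in 87. Set on each locus's own mean, the median member lay at −0.73 to −0.23 log2 units in the +CdL libraries and at −0.58 to −0.01 in the −CdL libraries. It lay at −0.61 to −0.06 in the +CdM libraries against 1.33 to 1.61 in the −CdM libraries, and at −1.45 to −0.79 in the +CdH libraries against 0.40 to 0.99 in the −CdH libraries. The libraries of the 2 low sulfate groups and of +CdM thus overlapped, and those of +CdH lay below them all.

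**Figure D1:**
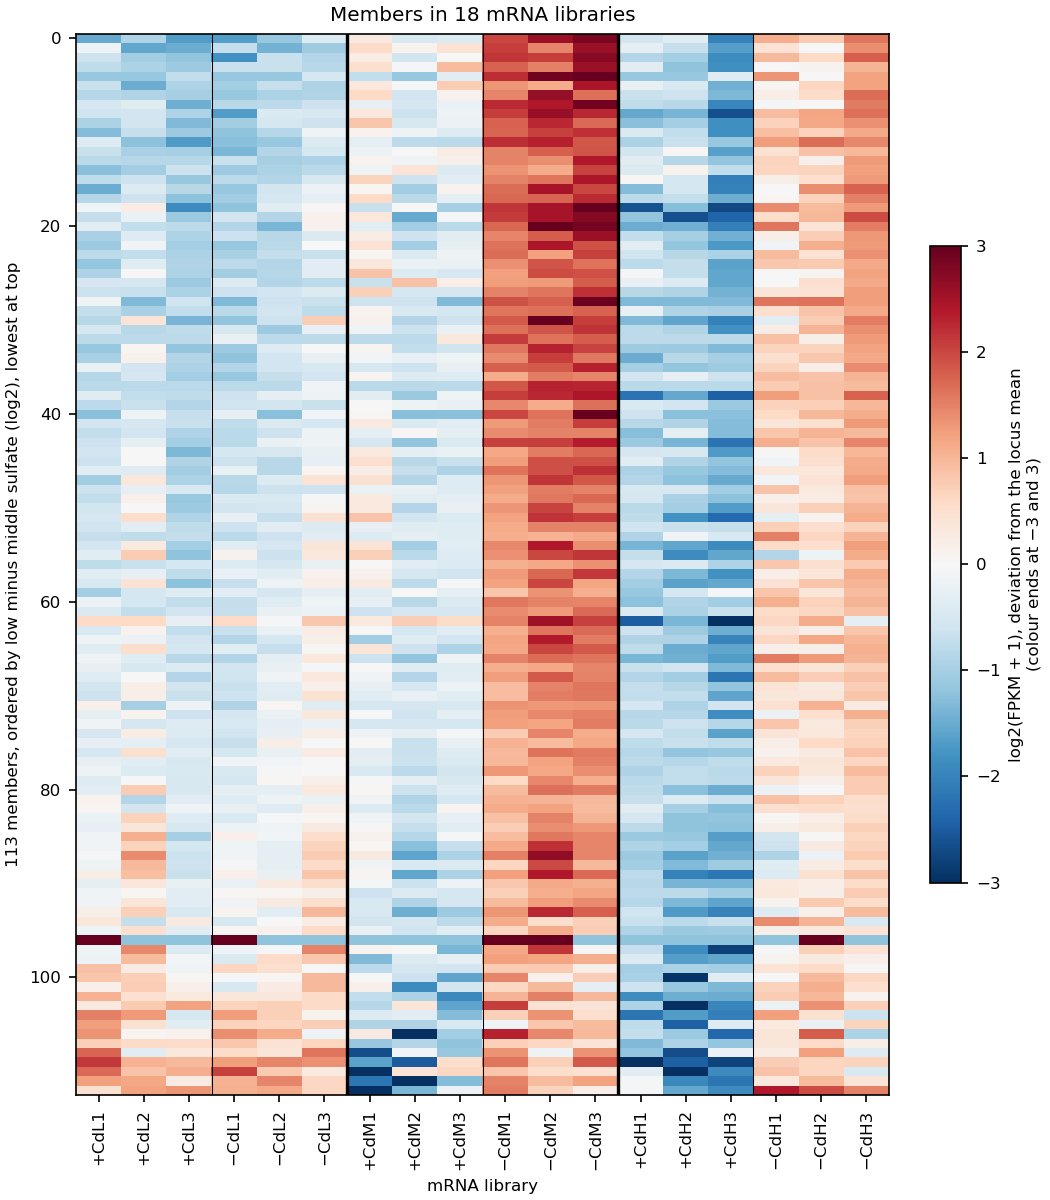
Each row is 1 of the 113 members and each column 1 of the 18 mRNA libraries; colour gives log2(FPKM + 1) as the deviation from the locus mean. The 3 −CdM columns are the darkest red in most rows. The low sulfate columns are pale blue in most rows, except −CdL3, whose median deviation is −0.01. The bottom rows are red at low sulfate instead.

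Potri.001G102300 (chromosome 1, 8178842 to 8182390) shows the common pattern. At low sulfate it had 10.7, 13.8 and 7.81 FPKM in +CdL and 9.23, 14.8 and 15.3 in −CdL. At middle sulfate it had 11.8, 6.89 and 12.4 FPKM in +CdM against 74.0, 75.2 and 91.0 in −CdM. At high sulfate it had 7.35, 5.86 and 2.87 FPKM in +CdH against 37.4, 31.5 and 49.0 in −CdH. The groups with and without Cd overlapped at low sulfate and did not at the other levels, and every low sulfate library lay below every −CdM and −CdH library.

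With Cd, Potri.012G134000 (chromosome 12, 15093389 to 15094710) fell by 2.79 log2 units at middle sulfate and by 3.36 at high sulfate. Its FPKM were 9.73, 7.25 and 7.14 in +CdL and 7.90, 10.4 and 11.3 in −CdL. They were 9.90, 5.40 and 11.5 in +CdM against 57.0, 65.3 and 73.1 in −CdM, and 1.99, 3.75 and 1.52 in +CdH against 31.8, 24.1 and 46.3 in −CdH. All 3 +CdH libraries lay below all libraries of the other 5 groups. Potri.008G134000 (chromosome 8, 8907118 to 8908811) also fell at both levels, from a higher level. It had 18.2, 18.6 and 14.3 FPKM in +CdL, 8.06, 20.3 and 19.9 in −CdL, 35.1, 17.6 and 24.9 in +CdM and 121, 175 and 138 in −CdM. At high sulfate it had 8.99, 10.01 and 3.68 FPKM in +CdH and 54.4, 64.5 and 89.4 in −CdH, with no overlap between these groups. Here −CdL1, at 8.06 FPKM, lay within the range of +CdH.

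Of the 12 members with the largest mean falls, 7 carry no gene identifier. XLOC_033086 (chromosome 15, 1607459 to 1607737) had 13.4, 17.3 and 3.20 FPKM in +CdL and 5.85, 11.7 and 15.1 in −CdL. It had 8.87, 14.95 and 6.90 FPKM in +CdM against 68.4, 87.1 and 152 in −CdM, and 1.595, 5.49 and 1.40 in +CdH against 41.0, 29.6 and 37.4 in −CdH. The low sulfate libraries again overlapped with those of +CdM, and the fall at both higher levels exceeded 3 log2 units. XLOC_035143 (chromosome 17, 209016 to 209866) fell most at high sulfate, where it was listed at 32.5, 70.6 and 0 FPKM in +CdH against 286, 404 and 151 in −CdH. At middle sulfate it had 227, 312 and 272 FPKM in +CdM against 518, 1079 and 766 in −CdM, and at low sulfate 281, 283 and 157 in +CdL and 281, 178 and 326 in −CdL.

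Levels differed widely between members. The highest group mean ran from 5.31 FPKM in XLOC_007107 to 18883 FPKM in XLOC_030107, with a median of 48.7 FPKM, and 31 members reached 100 FPKM in a group. Among those with a gene identifier, Potri.002G222700 (chromosome 2, 20938465 to 20940908) was the most abundant, with 148, 276 and 112 FPKM in +CdL, 182, 179 and 241 in −CdL, 301, 194 and 205 in +CdM and 537, 741 and 814 in −CdM. In the high sulfate groups it had 169.7, 126 and 105 FPKM in +CdH and 273, 289.6 and 445 in −CdH. Its low sulfate groups overlapped each other and the +CdM group. At the other end, XLOC_001643 (chromosome 1, 33813474 to 33813824) was listed at 0 in the 9 libraries with Cd and in −CdL1 and −CdL2. It was listed at 0.637 FPKM in −CdL3, at 5.39, 7.70 and 7.50 in −CdM and at 1.98, 2.23 and 2.37 in −CdH.

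A listed 0 can be a failed estimate. In all, 16 members were listed at 0 in at least 1 library, and in 6 of them a 0 stood alone in a group whose other libraries exceeded 5 FPKM. In these the 0 takes part in the choice. XLOC_031164 (chromosome 14, 17059967 to 17060127), the member with the largest mean fall, was listed at 0, 203 and 468 FPKM in +CdM against 1518, 837 and 588 in −CdM. Potri.018G138600 (chromosome 18, 15858557 to 15862250), singled out after its values were seen, was listed at 19.1 FPKM in +CdL1, 19.3 in −CdL1, 20.5 and 22.4 in −CdM1 and −CdM2 and 17.9 in −CdH2. It was listed at 0 in the other 13 libraries, so its group means turn on which libraries are at 0. Without the loci of this kind, 107 members remained.

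**Figure D2:**
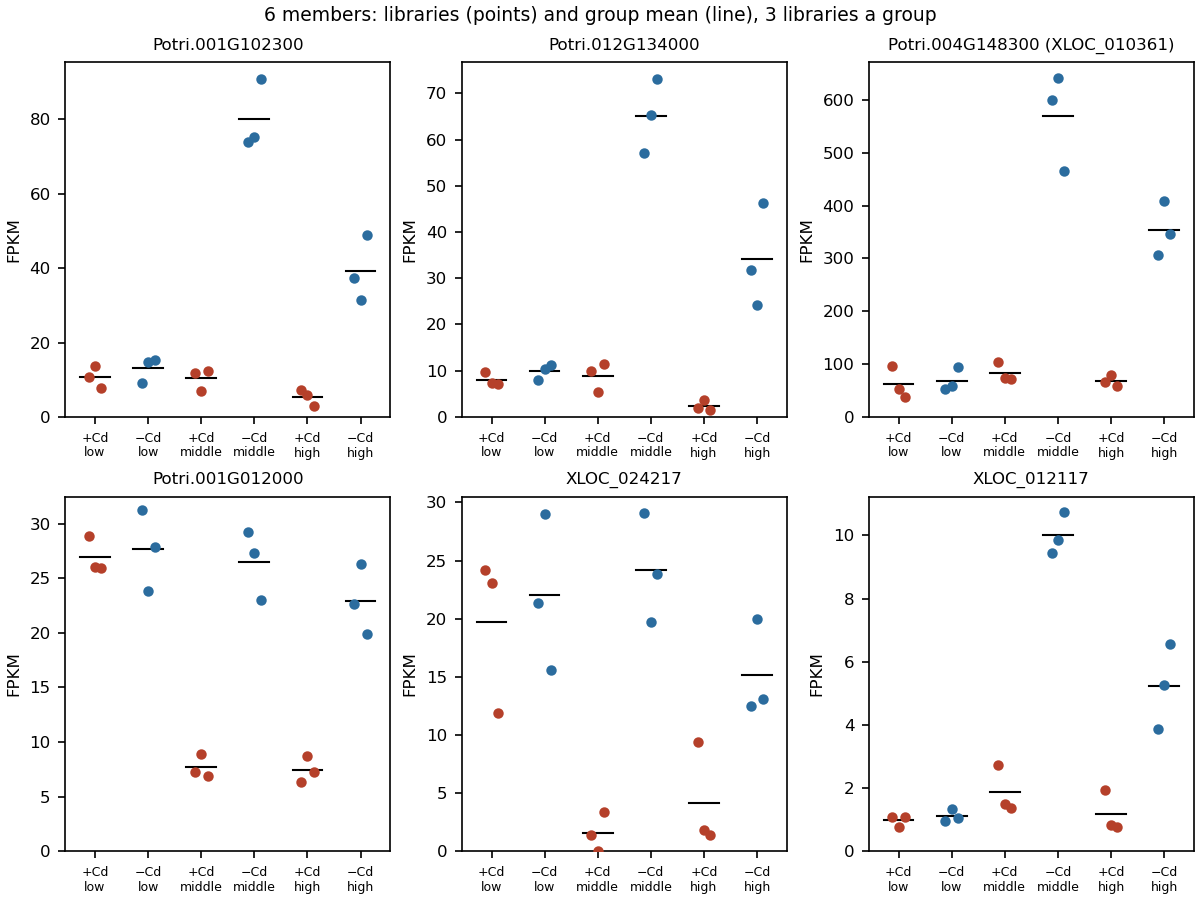
FPKM of 6 members in each mRNA library (points, red with and blue without Cd) with the group mean (line), by group. In Potri.001G102300, Potri.012G134000 and Potri.004G148300 both low sulfate groups lie with +CdM. In XLOC_012117 they lie below +CdM and in the range of +CdH. In Potri.001G012000 and XLOC_024217 they lie with −CdM.

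The level at low sulfate was then tested with the mean over both Cd treatments, low minus middle. If all groups share the same spread, the balanced design makes the estimation error of this difference independent of that of the Cd differences. Some members had unequal spreads. XLOC_031164 had 0, 203 and 468 FPKM in +CdM against 1518, 837 and 588 in −CdM. There the 0 both deepens the fall used by the rule and raises low minus middle. Also, the minimum of 5 FPKM used the same group levels. A member that met it only in a middle sulfate group was favoured to be high there. By the rule, the low sulfate level of a member could not match both +CdM and −CdM. Its averaged difference could be near 0 only midway between them. The other tested loci were not chosen this way, so their shares below are no like comparison for how many members passed. Low sulfate was lower than middle sulfate in 80 of the 113 members (70.8%, where 14.6% of all 23166 loci were lower) and higher in 2 (1.77%, where 12.2% were higher), by limma with Benjamini-Hochberg adjustment over all tested loci. The other 31 did not pass. In 10 members only a middle sulfate group reached 5 FPKM, and all 10 were among those lower. Of the 103 that reached it in a low or high sulfate group, 70 were lower (68.0%) and 2 higher, with a median of −0.95 log2 units. Of the 86 that reached it in a low sulfate group, 54 were lower (62.8%) and 2 higher, both splits chosen after the data were seen. Over all 113 the difference was below 0 in 97, and its median was −0.99 log2 units in the members and 0.01 over all tested loci. The count of members lower at low sulfate stayed at 75 to 84 with any 1 library left out. Over all tested loci, 54.5% of the calls were lower, and 39.3% under quantile normalization, where 78 members were lower and 4 higher.

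By the smallest adjusted p, Potri.016G142000 (chromosome 16, 14337452 to 14338584) leads those lower together with Potri.001G315000 and Potri.004G148300. XLOC_001643, also among the 4 smallest, is 1 of the 10 that reached 5 FPKM only at middle sulfate. Potri.016G142000 had 3.74, 4.16 and 3.44 FPKM in +CdL, 4.43, 4.61 and 4.11 in −CdL, 7.21, 6.33 and 5.96 in +CdM and 21.0, 16.8 and 24.8 in −CdM. Low minus middle was −1.33 ± 0.11 (SE; limma, adjusted p = 5.0e-06), and all 6 low sulfate libraries lay below all 6 middle sulfate libraries. Potri.001G315000 (chromosome 1, 32069002 to 32074536) averaged 4.93 ± 0.89 FPKM in +CdL, 5.35 ± 0.69 in −CdL, 5.94 ± 0.36 in +CdM and 21.5 ± 3.18 in −CdM (SD, n = 3 each). Its difference was −1.03 ± 0.09 (SE; limma, adjusted p = 5.1e-06), most of it between the groups without Cd.

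The averaged difference joins 2 parts, which are given as a description because the rule touches each of them. With Cd, low minus middle had a median of −0.14 in the 90 members with an identifier. Without Cd it had a median of −1.95 in the same members. In the 23 members without an identifier the medians were 0.94 with Cd and −0.79 without Cd. Over all 113, low and middle sulfate lay within 0.5 log2 units of each other in 64 members with Cd and in 12 without Cd. The −CdL mean lay within 0.5 log2 units of the +CdM mean in 69 of the 113. How many of all tested loci lie that close was not counted, so these counts show no likeness particular to the members.

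**Figure D3:**
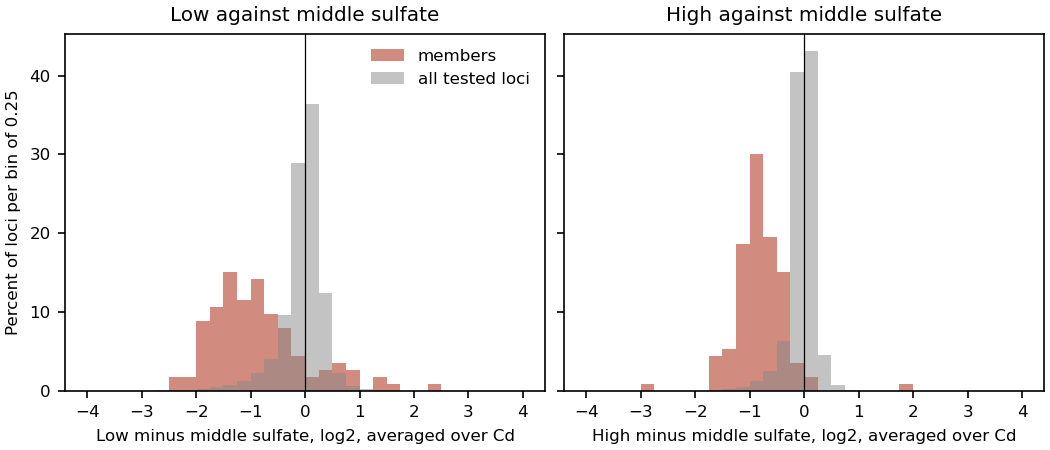
Percent of loci in bins of 0.25 log2 units of the sulfate difference averaged over Cd, for the 113 members (red) and all 23166 tested loci (grey). Members centre at −0.99 for low against middle sulfate, with a tail above 0, and at −0.87 for high against middle sulfate. All tested loci centre at 0.01 and −0.004.

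In the other direction 2 members passed, and 4 without +CdL3 or +CdM3 and 3 without +CdM1 or +CdH1. Potri.001G012000 (chromosome 1, 794822 to 800340) had 28.8, 26.0 and 26.0 FPKM in +CdL, 31.2, 23.9 and 27.8 in −CdL, 7.27, 8.87 and 6.87 in +CdM and 29.2, 27.3 and 23.0 in −CdM. At high sulfate it had 6.35, 8.67 and 7.23 FPKM in +CdH against 22.7, 26.3 and 19.9 in −CdH. The +CdM and +CdH libraries formed a low group of 6, and the 12 libraries of the other 4 groups overlapped. Low minus middle was 0.88 ± 0.10 (SE; limma, adjusted p = 3.6e-05) and low minus high 1.00 ± 0.10 (limma, adjusted p = 1.4e-05), higher in 6 of 6 low sulfate libraries in each. It was the only member of 400 bases or more whose low minus middle difference was above 0.

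The other is XLOC_024217 (chromosome 10, 2916437 to 2916723), a locus of 286 bases without a gene identifier. It had 24.1, 23.0 and 11.9 FPKM in +CdL, 21.4, 29.0 and 15.6 in −CdL, 1.40, 0 and 3.35 in +CdM and 29.1, 19.7 and 23.9 in −CdM. Low minus middle was 1.51 ± 0.38 (SE; limma, adjusted p = 0.0096). Its neighbour XLOC_024216 (2916096 to 2916305), 132 bases away, had 220.2, 105 and 98.8 FPKM in +CdL, 121, 141 and 132 in −CdL, 15.8, 8.02 and 72.6 in +CdM and 155, 83.1 and 182 in −CdM. Its difference of 1.27 ± 0.55 missed the threshold (limma, adjusted p = 0.0986), and it passed without +CdM3 or +CdH1.

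Among the 18 members under 400 bases, a limit set after the values were seen, low minus middle was above 0 in 15, and among the 95 longer members in 1, where 57.0% of the 293 short loci that are not members and 52.0% of all tested loci were above 0. The medians were 0.55 in the short members and −1.12 log2 units in the longer ones. A low +CdM value deepens the fall used by the rule and also raises low minus middle, and its part here was not tested. Of the short members 1 was called higher, 3 lower and 14 did not pass (limma, Benjamini-Hochberg), and of the longer ones 1 was higher, 77 lower and 17 did not pass. Of the 293 short loci outside the members 8.19% were higher and 7.51% lower, and of all tested loci 12.2% and 14.6%, as above. Short loci were frequent among the members, at 15.9% against 1.34% of all tested loci, and 15 of the 18 had no gene identifier. Loci without an identifier made up 20.4% of the members and 2.35% of all tested loci.

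**Figure D4:**
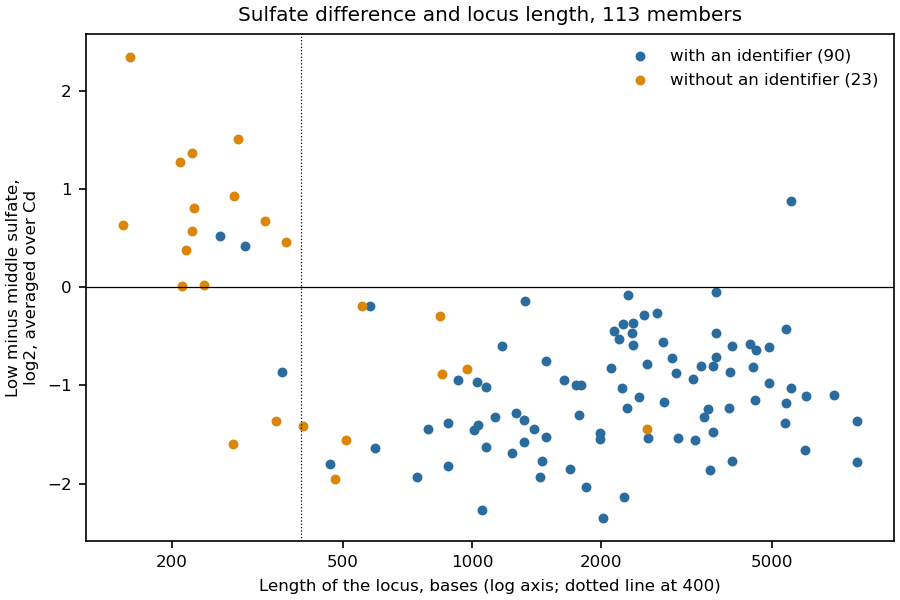
Low minus middle sulfate (log2, averaged over Cd) against the length of the locus on a log axis, for the 90 members with (blue) and the 23 without (orange) a gene identifier. Most points left of the dotted line at 400 bases lie above 0, and right of it 1 point does.

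Short members of high FPKM show how they differ. FPKM divide by transcript length, and how this was done for such short loci is not given in the sources used here. Their levels are thus uncertain. XLOC_030107 (chromosome 13, 14839061 to 14839215), 154 bases long, had 26974, 23001 and 6675 FPKM in +CdL and 22678, 15613 and 10132 in −CdL. It had 7119.7, 7526 and 3852 FPKM in +CdM against 15633, 24328 and 13480.0 in −CdM, and 2089, 2949.8 and 2277 in +CdH against 22089.5, 12970.2 and 6078 in −CdH. +CdL3 was below both other +CdL libraries by more than 3-fold, and the low sulfate groups overlapped with the −CdM and −CdH groups. Low minus middle was 0.64 ± 0.37 (SE; limma, adjusted p = 0.222). XLOC_026604 (chromosome 11, 6066224 to 6066440) was steadier, with 787, 509 and 393 FPKM in +CdL, 668, 593 and 419.6 in −CdL, 246, 298 and 287 in +CdM and 728, 736 and 487 in −CdM. Its difference of 0.37 ± 0.17 also missed the threshold (limma, adjusted p = 0.114).

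Short loci outside the members moved the same way. Over the 293 tested loci under 400 bases that are not members, the median Cd difference was 0 at low sulfate, −0.50 at middle and −0.55 at high, while over the 22855 tested loci of 400 bases or more it lay within 0.01 of 0 at each level. These 293 loci took 3.13% to 3.36% of all FPKM in +CdM against 5.37% to 6.40% in −CdM, and 2.01% to 3.27% in +CdH against 4.999% to 5.73% in −CdH. At low sulfate they took 4.23% to 7.18% in +CdL and 5.13% to 6.94% in −CdL, and these groups overlapped. The short members thus moved alongside other short loci, and the part of that shift in their values was not tested.

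**Figure D5:**
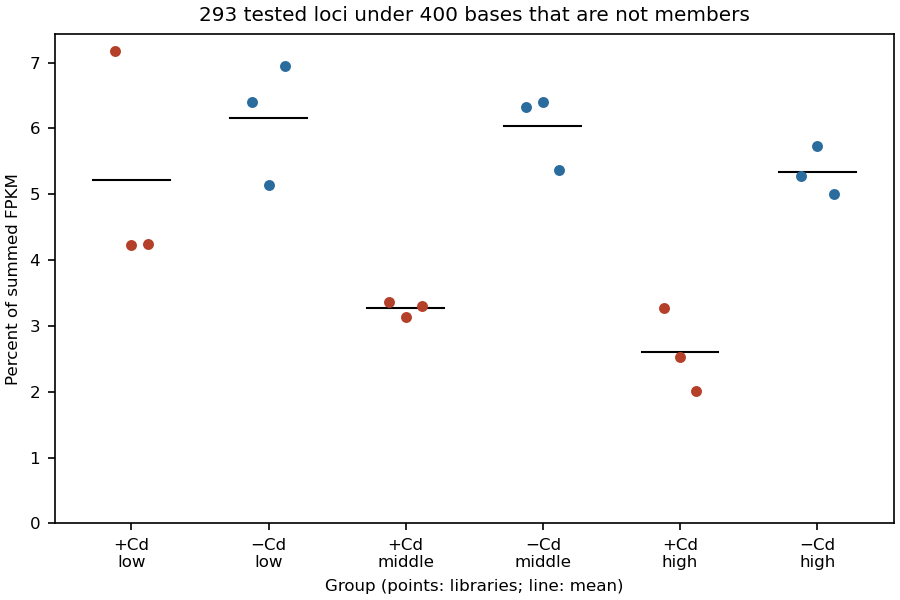
Percent of each mRNA library's summed FPKM held by the 293 tested loci under 400 bases that are not members, by library (points) and group mean (line). The +CdM and +CdH libraries lie between 2.01% and 3.36%, below all other libraries, and the +CdL and −CdL libraries overlap.

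High sulfate was below middle sulfate in 110 of the 113 members, by a median of −0.87 log2 units against −0.004 over all tested loci. Over all tested loci, 48.5% lay above 0 for this difference. By group means, 108 members were lower at high sulfate with Cd and 111 without Cd, and the shares of all loci were not counted for these. The limma test called 43 members lower (38.1%, where 1.63% of all loci were lower) and 0 higher (0.229% of all loci). Of the 43, 37 were also called lower at low sulfate, as were 80 of all 113 members. Both contrasts use the same middle sulfate libraries. The count of 43 rests on single libraries. It became 0 without any one of −CdM2, −CdM3, −CdH1, −CdH2, +CdM3 or +CdH3, 4 without +CdM1, 18 without −CdL2, 20 without +CdH2 and 26 without +CdL1, and it was 16 under quantile normalization. Of the calls over all loci 87.7% were lower, and 71.3% under quantile normalization.

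Potri.001G166200 (chromosome 1, 13947988 to 13949828) had one of the 4 smallest adjusted p for high against middle sulfate. It had 7.08, 3.34 and 1.83 FPKM in +CdH and 8.96, 9.94 and 19.6 in −CdH, against 13.1, 8.69 and 18.5 in +CdM and 33.1, 27.7 and 59.4 in −CdM. High minus middle was −1.58 ± 0.26 (SE; limma, adjusted p = 0.0302, and not past the threshold without any one of the same 6 libraries). It also stood lower in +CdL, at 4.91, 4.22 and 3.74 FPKM, than in +CdM, with −CdL at 5.37, 5.33 and 4.69. Potri.009G125400 (chromosome 9, 10412111 to 10416136) averaged 16.9 ± 0.56 FPKM in +CdH and 41.2 ± 5.36 in −CdH against 21.6 ± 2.71 in +CdM and 73.6 ± 13.6 in −CdM (SD, n = 3 each), with a difference of −0.58 ± 0.09 (SE; limma, adjusted p = 0.0302, lost in the same way).

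Between low and high sulfate, averaged over Cd, the test called 28 members lower at low sulfate (24.8%, where 10.3% of all loci were) and 11 higher (9.73%, near the 11.5% of all loci), and 74 did not pass (limma, Benjamini-Hochberg). As with middle sulfate, the rule kept the low sulfate level from matching both +CdH and −CdH, so the shares of all loci are no like comparison. The 11 became 6 without −CdL3, 7 without −CdL2, −CdH1 or +CdL2. Among the 23 members without an identifier 7 were higher and 4 lower, and among the 90 with one 4 were higher and 24 lower.

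Members lay on all 19 chromosomes, with 17 on chromosome 5, which were 0.651% of its loci. Among them, 5 pairs were direct neighbours. Potri.004G148300 is listed for 2 loci of the same interval (chromosome 4, 17083257 to 17091130), as XLOC_010361 and XLOC_011542, with different values. How reads were assigned between them is not given in the sources used here, so both levels are uncertain. XLOC_010361 had 104, 73.0 and 72.2 FPKM in +CdM against 599, 641 and 466 in −CdM, and XLOC_011542 had 15.2, 10.6 and 10.8 in +CdM against 32.0, 43.7 and 41.5 in −CdM. Potri.005G246900 and Potri.005G247000 on chromosome 5 are 594 bases apart, and Potri.006G112500 and Potri.006G112600 on chromosome 6 are 3605 bases apart. Potri.005G246900 (25072257 to 25073267) was listed at 0 in all 3 +CdH libraries against 6.59, 6.67 and 4.98 FPKM in −CdH, and at 0.631, 0.622 and 0 in +CdM against 8.32, 7.70 and 18.2 in −CdM. Potri.005G247000 (25073861 to 25075963) kept 5.14, 5.49 and 2.91 FPKM in +CdH against 12.7, 11.6 and 14.9 in −CdH.

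Potri.017G017200, which holds the overlapping predicted hairpins given above, lies 343 bases from Potri.017G017300 (1462472 to 1462940). Potri.017G017200 had 4.61, 6.48 and 5.42 FPKM in +CdL, 3.88, 4.64 and 4.75 in −CdL, 6.62, 6.49 and 5.76 in +CdM and 19.6, 24.3 and 23.8 in −CdM. Potri.017G017300 had 23.9, 36.9 and 27.8 FPKM in +CdL, 25.4, 32.6 and 54.7 in −CdL, 64.9, 53.9 and 45.6 in +CdM and 202, 250.4 and 279.7 in −CdM. In both genes the low sulfate groups overlapped and the middle sulfate groups did not. Low minus middle was −1.15 ± 0.12 (SE; limma, adjusted p = 3.0e-05) for the first and −1.80 ± 0.23 (limma, adjusted p = 9.5e-05) for its neighbour. Across the 18 libraries the log2 values of each neighbouring pair correlated at 0.69 (XLOC_024216 with XLOC_024217) to 0.97 (the chromosome 17 pair), a description in which both loci share the libraries and, by the rule, the Cd pattern.

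XLOC_012117, the locus of the miR6438 hairpin, had its low sulfate libraries below all +CdM, −CdM and −CdH libraries and in the range of +CdH. It had 1.10, 0.755 and 1.07 FPKM in +CdL, 0.971, 1.32 and 1.04 in −CdL, 2.73, 1.501 and 1.37 in +CdM and 9.44, 9.87 and 10.7 in −CdM, and 1.93, 0.834 and 0.754 in +CdH against 3.87, 5.27 and 6.56 in −CdH. Low minus middle was −1.45 ± 0.15 (SE; limma, adjusted p = 2.2e-05). That the hairpins lie in these members rests on the listed positions, since the sources used here do not state that the mRNA and small RNA tables share a build. Of the hairpins of the authors' miRBase class, 23 of 294 (7.82%) lie within loci without an identifier, which cover 0.156% of the listed span, and of the predicted hairpins 2 of 370 (0.541%). Loci with an identifier cover 35.2% of the span and hold 30.3% of the miRBase-class and 33.5% of the predicted hairpins.

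The small RNA libraries, which the rule did not use, held between 498205 and 2934278 listed reads each. The sequence ptc-MIR6438b-p5_1ss11AG had 35.8, 58.2 and 91.3 CPM (reads scaled to a common library total) in +CdL, 38.9, 35.6 and 33.1 in −CdL, 80.3, 87.3 and 52.3 in +CdM and 68.3, 40.8 and 69.9 in −CdM. At high sulfate it had 63.5, 102 and 82.5 CPM in +CdH and 58.0, 76.2 and 50.3 in −CdH. The groups with and without Cd overlapped at each sulfate level. Averaged over sulfate it was higher with Cd by 0.51 ± 0.19 log2 units (SE; edgeR quasi-likelihood, adjusted p = 0.0494), in 7 of 9 libraries, where 13.3% of the 368 tested sequences were called higher and 13.6% lower. The adjusted p ran between 0.0115 and 0.171 over 22 alternatives and passed in 9 of them. The shifted copy PC-5p-195501_30, at 1 to 13 reads per library, was higher by 1.17 ± 0.35 log2 units (edgeR, adjusted p = 0.0179), in 8 of 9 libraries, and passed in 20 of the 22 alternatives, all but those without +CdM2 or +CdH1. Averaged over sulfate, both sequences of this arm were thus called higher with Cd in the main fit. Their differences were largest at low sulfate, at 0.79 and 1.57 log2 units. The FPKM of the locus that lists this hairpin was lower with Cd at middle and high sulfate. At those levels neither sequence was called, with 0.31 and 0.42 for ptc-MIR6438b-p5_1ss11AG (edgeR, adjusted p = 0.598 and 0.477). For PC-5p-195501_30 the values were 0.82 and 1.10 (edgeR, adjusted p = 0.414 and 0.303).

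The other 3 sequences gave no call. ptc-miR6438a had 1.67, 4.77 and 22.4 CPM in +CdL, 2.78, 8.54 and 16.5 in −CdL, 8.51, 7.17 and 9.14 in +CdM, 10.6, 13.6 and 18.2 in −CdM, 1.57, 4.51 and 3.44 in +CdH and 11.5, 7.67 and 13.2 in −CdH. It was lower with Cd in 8 of 9 libraries, all but +CdL3, by −0.83 ± 0.38 log2 units (edgeR, adjusted p = 0.112). Without +CdL3 it passed the threshold, and also with no filter on low counts. Of the sequences from Potri.017G017200, PC-3p-82082_103 differed by 0.14 ± 0.25 (edgeR, adjusted p = 0.721) and PC-5p-51531_193 by −0.13 ± 0.24 (adjusted p = 0.731). None of the 5 passed a test of Cd at low sulfate (of the 368, 5.71% were lower and 11.4% higher), at middle (1.63% and 6.52%) or at high sulfate (2.72% and 4.08%), nor one of a difference in the Cd effect between levels.

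In the degradome tables, which list predicted cut sites in 855 genes for each pool, 1 member has a site. Potri.005G119200 (chromosome 5, 9241520 to 9243507) is listed for the predicted sequence PC-5p-162651_39 with a cut at position 519 of its transcript. The pool with Cd had no read there, and the pool without Cd had 1 raw read, in category 4, the weakest class. With 1 pool per Cd treatment there is no replicate check, and 1 read does not measure a difference in cutting.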

How the data were processed

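Per the file headers, the authors deposited FPKM per locus for 18 mRNA libraries, an expected count per hairpin and small RNA and a normalized signal for 18 small RNA libraries, and raw read counts, scaled signal, alignment scores and categories of cut sites for 2 degradome pools. Per the submitters' processing notes TopHat2 2.1.1 was used. Neither the build nor the annotation nor the FPKM program is given in the sources used here.

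The members and lists were chosen with earlier results of these data known. The 23166 loci averaging 1 FPKM or more, all 113 members among them, were fitted as log2(FPKM + 1) with limma 3.58.1 (trend, robust) in R 4.3.3 with 6 group means, and sulfate contrasts were averaged over Cd. Differences are on this scale, which understates changes of low loci. Expected counts of small RNAs were summed over hairpins, rounded and tested with edgeR 4.0.16 (TMM, filterByExpr, quasi-likelihood) on 368 sequences, with DESeq2 1.42.0 as an alternative. Tests were two-sided and called at a Benjamini-Hochberg adjusted p under 0.05. In the counts of libraries on 1 side, each library of the first level was set against the mean of the libraries of the second. Both fits were tested on simulated data. The normalized signal was not used. Named members are the 12 with the largest mean fall, the 4 of highest mean, up to 4 per direction of smallest p for each sulfate contrast with middle, neighbours, those at the rule's limits and those with hairpins or cut sites. The hairpin overlap, the splits at 400 bases and by where members reached 5 FPKM, and the loci outside the naming rule were chosen after values were seen. Replicate numbers did not pair the libraries.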

Additional observations from a re-analysis of the deposited data

How the results depend on the processing

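Over 1758 alternatives for single loci and sequences, 1558 kept direction and call, 179 lost the call, 21 gained it and 0 turned round. A window of −0.5 to 0.5 at low sulfate gave 202 members in place of 113, and the other settings of the rule gave 100 to 136. Under quantile normalization 4260 of all loci (2819 as deposited) and 4 members were higher at low than at middle sulfate, and 134 loci and 16 members were lower at high than at middle sulfate. With no filter on low values these last were 181 and 16, with 24 loci higher. Of the 103 members that reached 5 FPKM at low or high sulfate, a split added after seeing the data, 38 were lower at high than at middle sulfate (43 of all 113). Replicate numbers did not pair the libraries (7 of 45 same-number correlations of deviations exceeded 0.1, and 6 of 18 libraries lay closest to their own number). With a replicate block 95 loci and 9 members were lower and 12 loci higher at high sulfate, and Cd changed 13 small RNAs at high sulfate. Categories 0 to 2 held 0 cut sites in members. Leaving out 1 library gave 79 to 168 members. Against middle sulfate, 75 to 84 members were lower and 2 to 4 higher at low sulfate, with 2670 to 3566 and 2177 to 2986 of all loci. At high sulfate 0 to 58 members were lower and 0 higher, with 0 to 579 and 1 to 99 loci. For low against high sulfate 21 to 29 members were lower and 6 to 14 higher, with 1728 to 2706 and 1966 to 2964 loci. For small RNAs, 29 to 59 were lower and 42 to 59 higher with Cd averaged over sulfate, and 57 to 74, 15 to 33 and 8 to 36 changed at low, middle and high sulfate. FPKM carry no read totals, so counting error could not be given for the members.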
